A study of Mus musculus with 5 samples.

Results

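Lipid metabolism was followed in primary rib chondrocytes, the cells that make cartilage, through 40 genes for the synthesis, storage, breakdown, oxidation and lipoprotein transport of fat, out of 18193 genes on the array. The genes were taken by name, and every probe set annotated to one of them alone was read. Of the 40, 39 had such a probe set, 80 probe sets in all. Acsl1, which activates long-chain fatty acids, had none in the annotation used here. Each gene was read from the brightest of its probe sets and counted as measured where the mean of that probe set over the arrays reached 105.9 intensity units, the median of all probe sets. This held for 33 of the 40 genes, and none of the 33 owed it to a single array. The other 6 lay under that filter and are described by their values.

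FVB mouse embryos of gestational day 18.5 gave the cells, which collagenase and trypsin freed from the rib cages and which grew at high density on gelatin with ascorbic acid and beta-glycerophosphate in the medium. RNA was read on 5 single-colour arrays, taken on days 2, 6, 9, 12 and 15. By their labels the groups share strain, age, tissue and medium and are told apart by day alone. The labels do not say whether the dishes came from a common isolate, so dish, isolate and array cannot be separated from day. Since each day had 1 array, differences between days stand without replicates. The array medians lay between 106 and 118.

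Values are the deposited signal intensities on a linear scale. Before a fold was taken, anything under 73.1 intensity units (the 40th percentile) was raised to that floor, and where either day lay under the floor the fold is a bound, written "at least". Counts of higher or lower genes take a floored intensity that differed 2-fold or more. As a guide to error, the SD of a log2 difference read from 1 probe set, found from the 2 brightest probe sets of 6988 genes, was 0.62 for day 12 or day 15 against day 2 and 0.41 for day 15 against day 12. The spread leaves out variation between arrays or dishes, since both probe sets come from the same ones. Of 1837 genes called at day 12 by the brightest probe set, the next brightest pointed the same way in 76.1% and was itself past 2-fold in 44.4%.

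Cells build fatty acids from citrate-derived acetyl units, lengthen and desaturate them, join them to glycerol as triglyceride and keep the triglyceride in droplets. Lipases release the fatty acids again for export or for beta-oxidation in mitochondria, and apolipoproteins and the transporter ABCA1 carry lipid out of the cell. Fat cells run all of these steps at high capacity, and SREBP-1c, ChREBP, LXR and PPAR gamma are the transcription factors best known for controlling the genes.

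At day 12, 19 of the 33 measured lipid genes exceeded their day 2 level 2-fold or more and 1, Me1, was lower by as much. Over all 11075 genes measured the shares were 16.1% higher and 11.4% lower. The median log2 difference of the lipid genes was 1.37, against 0.00 for all genes. The other days gave 9 higher lipid genes (day 6), 15 (day 9) and 13 (day 15), beside 10.2%, 15.1% and 16.2% of all genes, and the medians were 0.16, 0.97 and 0.61. These comparisons share the day 2 array. Read against day 6 instead, 14 lipid genes were higher at day 12, where 7.09% of all genes were, with a median of 0.80, and 0 were lower, where 4.97% were. The lower count was 1 at day 6 (Slc2a4) and day 9 (Me1) and 0 at day 15, beside 5.70%, 10.3% and 11.6% of all genes. Without the intensity filter Pck1 was also lower on each of these days by its brightest probe set, though not by its others. Step by step, 10 lipid genes were higher and 0 lower at day 9 than at day 6, beside 5.87% and 4.06% of all genes, and 6 were higher and 0 lower at day 12 than at day 9, beside 1.72% and 1.51%.

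**Figure D1:**
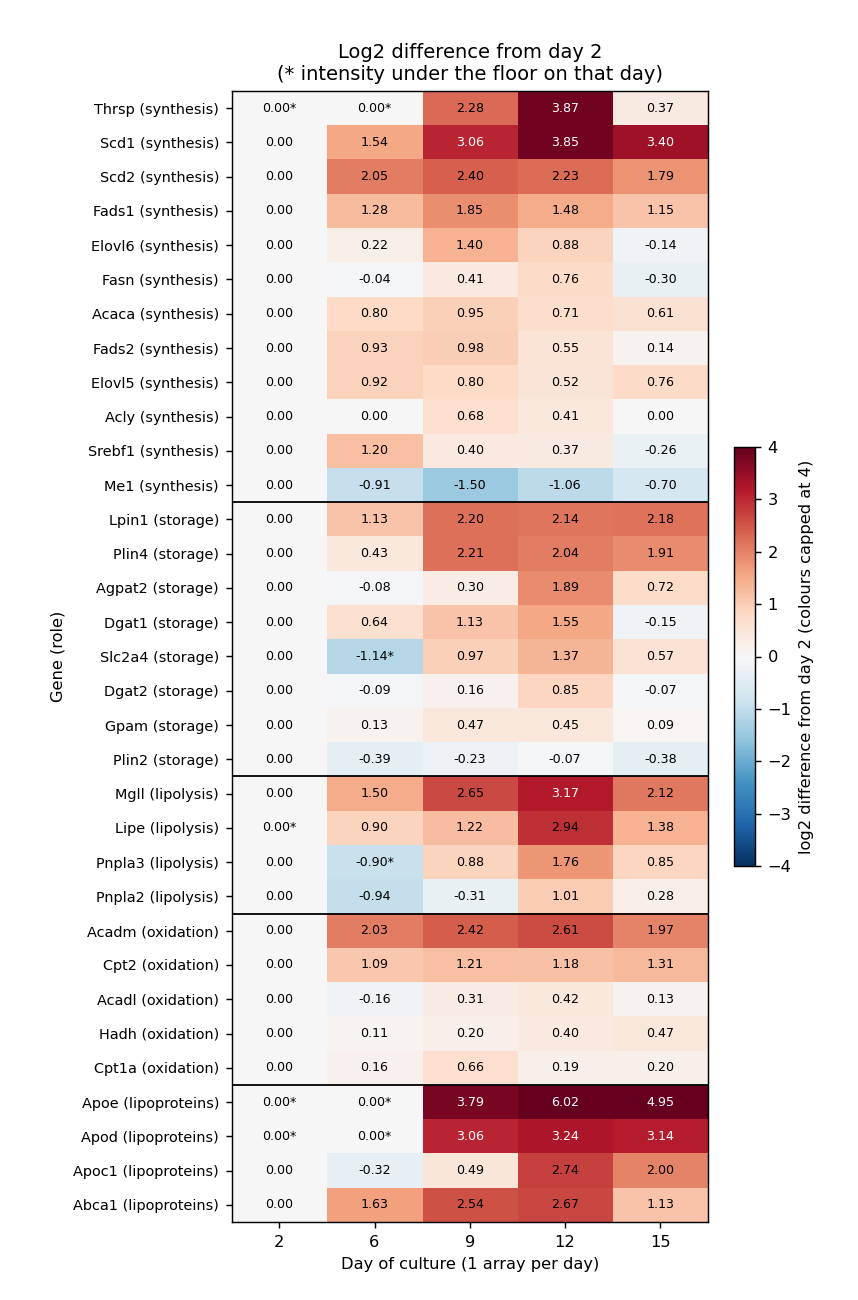
Log2 difference from day 2 (columns, days 2, 6, 9, 12 and 15, 1 array each) for the 33 measured lipid genes (rows, grouped by role), from floored intensities of the brightest probe set, with an asterisk where the intensity was under the floor of 73.1. Scd1, Thrsp, Mgll, Lipe and the 4 lipoprotein genes have their largest printed value at day 12, and Me1 is the deepest blue on days 9, 12 and 15. Colours are capped at 4, so Apoe has the same red on days 12 and 15.

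Day 12 was the day of the highest intensity for 17 of the 33 genes, beside 15.5% of all genes, and day 9 for a further 10, beside 14.0% of all genes. Day 2 was highest for 2 lipid genes, Me1 and Plin2, although it was the commonest such day over all genes, at 32.2%. Day 6 was highest for 2, Elovl5 and Srebf1, and day 15 for 2, Cpt2 and Hadh, beside 16.0% and 22.4% of all genes. By role the highest days were as follows, and differences between roles were not tested. All 4 measured lipolysis genes and all 4 lipoprotein genes were highest at day 12, while 6 of 12 synthesis genes were highest at day 9 and 3 at day 12. Of 8 storage genes 3 were highest at day 9 and 4 at day 12. Of 5 oxidation genes 1 was highest at day 9, 2 at day 12 and 2 at day 15. Apod and Abca1 were close on days 9 and 12, and a dimmer probe set of Abca1 was highest at day 9 (422 against 386 at day 12). A gene with 1 array per day has its peak placed by a single reading.

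**Figure D2:**
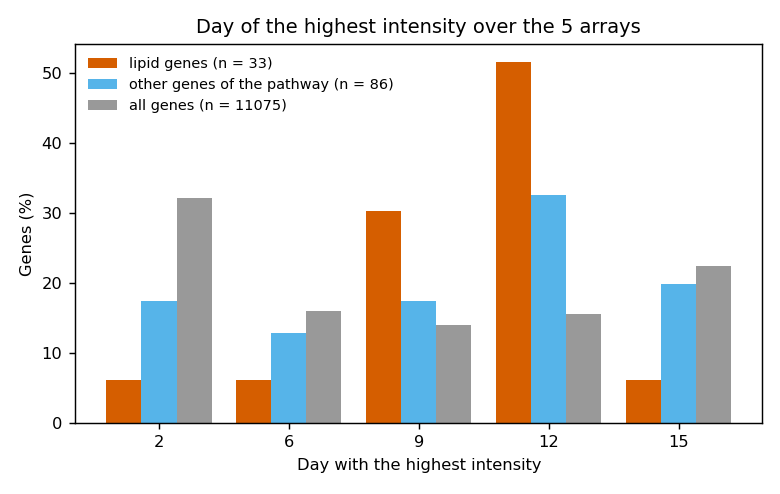
Share of genes (vertical axis, %) whose highest intensity fell on each day (horizontal axis) for the 33 measured lipid genes, the 86 measured genes of a wider lipid list and all 11075 genes. The lipid genes stand at 51.5% on day 12 and 30.3% on day 9, and all genes at 32.2% on day 2.

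From day 12 to day 15 many lipid genes were lower again: 9 of 33 by 2-fold or more and 0 higher by as much, beside 3.92% and 4.23% of all genes, with a median log2 difference of -0.45. The 9 were Fasn, Elovl6, Thrsp, Dgat1, Agpat2, Lipe, Mgll, Apoe and Abca1. Of 7 other probe sets of these genes past the filter, 6 were lower at day 15 than at day 12 and 3 by 2-fold or more. The exception was a dim probe set of Elovl6. Read from day 9 in place of day 12, 4 lipid genes were lower at day 15 and 2 higher, beside 4.05% and 5.00% of all genes, so the count depends in part on the day 12 array.

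**Figure D3:**
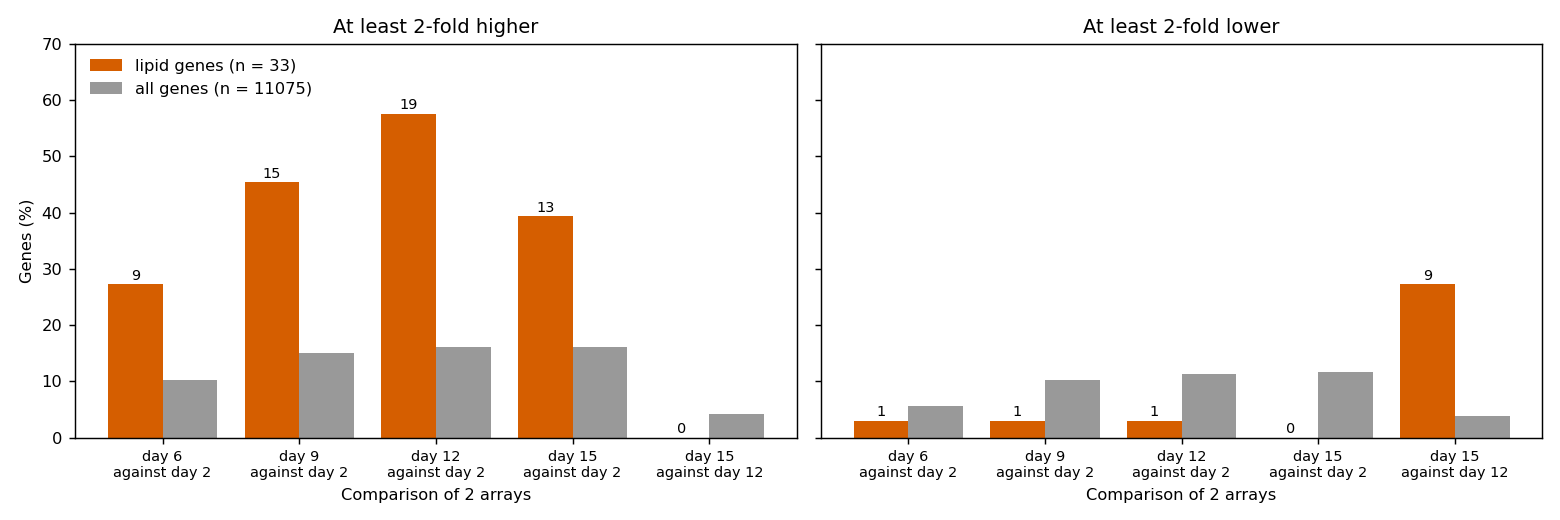
Share of genes (vertical axis, %) higher (left) or lower (right) by 2-fold or more in 5 comparisons of 2 arrays, for the 33 measured lipid genes (with their number above the bar) and all 11075 genes. The share of higher lipid genes is largest at day 12, with 19 genes, and lower lipid genes are most numerous in day 15 against day 12, with 9.

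In the synthesis group 4 of 12 measured genes (Scd1, Scd2, Fads1 and Thrsp) were 2-fold or more above day 2 at day 12 and 1 (Me1) was lower by as much. Scd1, which puts the first double bond into stearate and palmitate, had intensities of 1954, 5686, 16279, 28111 and 20628 on days 2, 6, 9, 12 and 15. Relative to day 2 it stood 14.4-fold higher on day 12 and 10.6-fold higher on day 15, or 17.3-fold and 7.03-fold by its other probe set. Scd2, the isoform of most tissues outside the adult liver, had 4521, 18768, 23798, 21219 and 15613. It was already near its top at day 6, and on day 12 it was 4.69-fold above day 2, with 6.24-fold and 7.39-fold by its other probe sets. The 2 genes are paralogs with 1 protein-coding gene between them in the mouse genome, and the match of their probes to each other's transcripts was not tested.

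Fads1, the delta-5 desaturase of polyunsaturated fatty acids, had 1118, 2707, 4039, 3113 and 2486, so it was 2.78-fold higher at day 12. Its other probe set, far dimmer, was 1.49-fold higher at day 12 and below its day 2 level at day 15. Fads2, the delta-6 desaturase and the gene next to Fads1, had 652, 1247, 1285, 958 and 721 by its brightest probe set, 1.47-fold higher at day 12. A second probe set of Fads2 gave 270, 1029, 1592, 1136 and 777, which is 4.20-fold higher. The 3 probe sets of Fads2 past the filter were all highest at day 9, but they differed on whether the gene passed 2-fold.

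The enzymes that make palmitate itself moved less. Fasn, fatty acid synthase, had 1905, 1848, 2522, 3214 and 1551, within 2-fold of day 2 on every day. Acaca, the carboxylase that commits acetyl-CoA to the pathway, had 521, 909, 1009, 854 and 798, and Acly, which makes that acetyl-CoA from citrate, had 4278, 4265, 6875, 5698 and 4272. None of these 3 reached 2-fold by the brightest probe set, although Acaca was 2.79-fold higher at day 12 by another. Of the elongases, Elovl6 had 690, 805, 1820, 1271 and 628, which is 2.64-fold higher at day 9 only, and its other probe sets past the filter stayed under 2-fold. Elovl5 had 2580, 4891, 4489, 3710 and 4380, under 2-fold throughout.

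Thrsp, the Spot 14 protein gene that tracks lipogenesis in fat and liver, had 11.1, 42.4, 354, 1068 and 94.5. It was under the floor at days 2 and 6, at least 14.6-fold over day 2 on day 12 and 11.3-fold lower at day 15 than at day 12, the deepest such drop among the 33 genes. Another probe set gave 3.84-fold higher at day 12, with 193 at day 2, and 7.26-fold lower from day 12 to day 15. Me1, the malic enzyme that supplies NADPH, went the other way with 5217, 2768, 1846, 2510 and 3201, which put it 2.08-fold lower at day 12, and 2.23-fold by another probe set. Day 9 was its lowest day and the day on which Scd2, Fads1, Fads2 and Elovl6 were highest.

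Among the regulators, Srebf1, which encodes SREBP-1, had 864, 1985, 1140, 1115 and 721. It was 2.30-fold higher at day 6 and back within 2-fold from day 9, so its highest day came before that of most synthesis genes. Mlxipl, which encodes ChREBP, had 40.2, 9.88, 3.98, 76.4 and 86.7, under the floor until day 9 and barely above it later. Acacb, the mitochondrial-surface carboxylase whose product restrains fatty acid entry, was 82.3 at day 2 and under the floor on every later day. Neither Mlxipl nor Acacb reached the filter.

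In the storage group, 5 of 8 measured genes stood 2-fold or more above day 2 at day 12, and 2 of them at day 15 (Lpin1 and Plin4). Lpin1, the phosphatidate phosphatase that makes diacylglycerol, had 125, 274, 577, 551 and 566, 4.39-fold higher at day 12 and 4.52-fold at day 15 (2.26-fold and 1.64-fold by another probe set). Plin4, a droplet-coating perilipin, had 259, 348, 1199, 1062 and 970, 4.10-fold higher at day 12. By these probe sets both were higher at day 9 than at day 6 and stayed near that level, but the other probe set of Lpin1 had 173, 266, 260, 389 and 282, with no difference of that kind from day 6 to day 9.

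The acyltransferases differed in timing. Agpat2, which adds the second acyl chain and is the form best known in fat cells, had 729, 692, 898, 2701 and 1203, so day 12 stood alone at 3.70-fold above day 2. Dgat1, which makes triglyceride in the last step, had 470, 733, 1026, 1375 and 425, 2.93-fold higher at day 12 and below its day 2 value at day 15. Dgat2, the other enzyme of that step, had 536, 503, 599, 967 and 512, a day 12 high of 1.80-fold, or 2.14-fold by its other probe set. Gpam, the mitochondrial enzyme of the first step, had 870, 952, 1204, 1189 and 926 and stayed within 2-fold.

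Plin2, the perilipin found on droplets of most cell types, had 3012, 2293, 2573, 2873 and 2310. It was highest at day 2 and stayed within 2-fold, unlike Plin4. Slc2a4, the insulin-responsive glucose carrier GLUT4, had 161, 27.7, 315, 417 and 239, with day 6 under the floor and day 12 2.59-fold above day 2 (5.12-fold by the other probe set). Cidea, Lep and Pck1, all genes of fat tissue, were under the filter. Cidea, a droplet-fusion protein gene prominent in brown fat, had 14.2, 19.4, 54.8, 11.7 and 3.97, and Lep, the leptin gene, had 22.0, 20.9, 12.8, 11.0 and 5.87. Both were under the floor on all 5 arrays. Pck1, which takes part in making glycerol 3-phosphate from pyruvate-derived carbon, had 156, 57.4, 70.2, 75.2 and 39.9, at least 2.13-fold lower at day 15. Its other probe sets, under the filter too, had 98.1, 125, 21.0, 40.5 and 83.0, and 4.45, 81.1, 28.9, 26.3 and 17.3. Neither was 2-fold lower than at day 2 on any later day.

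In the lipolysis group all 4 measured genes passed 2-fold over day 2 at day 12. Mgll, the lipase of the last step from monoglyceride to glycerol, had 144, 405, 901, 1291 and 625, 8.99-fold higher at day 12 and 4.35-fold at day 15. Its other probe sets past the filter gave 4.87-fold and 6.61-fold at day 12. Lipe, hormone-sensitive lipase, had 52.9, 137, 171, 559 and 190, at least 7.65-fold over day 2 on day 12 and at least 2.60-fold on day 15. In both genes day 12 was the top and day 15 lay between day 6 and day 12.

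Pnpla2, which encodes the lipase ATGL that starts triglyceride breakdown, had 337, 175, 272, 679 and 408, so days 6 and 9 were under day 2 and day 12 was 2.02-fold above it. Pnpla3, a related lipid hydrolase gene, had 136, 55.5, 251, 461 and 246, 3.39-fold higher at day 12. Both were lower at day 6 than at day 2 and highest at day 12. Aqp7, the glycerol channel of fat cells, had 77.6, 45.7, 60.2, 96.9 and 40.2, close to the floor on every day and under the filter.

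Promoter letters were read for 32 of the 40 genes, with 43 annotated start sites, over the 250 bases upstream of each start in the RefSeq table of build GRCm38.p6. The E-box CACGTG, the core letters bound by USF, MYC and related helix-loop-helix factors, was in 5 of 43 lipid gene promoters (Abca1, Elovl5, Lipe, Mgll and Mlxipl) and in 6.02% of 32851 promoters. The stretches around it are shown for Mgll, Lipe and Abca1, chosen for their course by the brightest probe set. All 3 passed 6-fold over day 2 at day 12 and were lower again by 2-fold or more at day 15. Not every other probe set of Mgll and Abca1 past the filter reached these folds. Elovl5, under 2-fold throughout, and Mlxipl, under the filter, hold the E-box without that course. Thrsp had that course without an E-box, at least 14.6-fold higher at day 12 and then 11.3-fold lower at day 15. A link between the E-box and the course was not tested. Capitals mark the E-box, which reads the same on both strands and overlapped none of the other motifs searched.
Mgll, 6:88724321-88724411, plus strand: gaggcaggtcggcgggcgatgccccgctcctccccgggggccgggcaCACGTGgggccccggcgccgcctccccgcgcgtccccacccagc
Lipe, 7:25396090-25396189, minus strand: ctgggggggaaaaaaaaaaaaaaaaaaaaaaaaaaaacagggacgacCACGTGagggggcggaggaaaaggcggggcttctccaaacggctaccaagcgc
Abca1, 4:53159990-53160089, minus strand: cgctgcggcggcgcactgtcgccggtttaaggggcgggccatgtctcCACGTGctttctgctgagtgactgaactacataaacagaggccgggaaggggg
The E-box began 44 bases before the start in Mgll, 155 in Lipe and 147 in Abca1. The other motifs were searched on both strands too. TCACNCCAC, a sterol element, was in 2 lipid gene promoters (Acsl1 and Mlxipl) and 1.05% of all, CCAAT in 15 and 33.8%, and GGGCGG in 20 and 32.7%. The direct repeat DR1, read by nuclear receptors, was in 0 of the 43 and 0.338% of all. These are matches of letters and not binding sites.

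In the oxidation group, 2 of 5 measured genes passed 2-fold over day 2 at day 12. Acadm, the medium-chain acyl-CoA dehydrogenase, had 1444, 5904, 7730, 8823 and 5659, 6.11-fold higher at day 12 and 3.92-fold at day 15. Most of that difference was in place by day 6, at 4.09-fold. Cpt2, which rebuilds acyl-CoA inside the mitochondrion, had 410, 872, 951, 932 and 1019, 2.27-fold higher at day 12 and 2.48-fold at day 15. A dimmer probe set of Cpt2, of a design whose probes may match other transcripts, had 224, 204, 254, 110 and 110, so it was 2.03-fold lower at day 12, and the direction for Cpt2 rests on the brighter one.

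The other 3 oxidation genes stayed within 2-fold of day 2 by their brightest probe sets. Cpt1a, which admits long-chain fatty acids to the mitochondrion, had 760, 851, 1205, 866 and 876. Its dimmer probe sets past the filter, of the design of the dim one of Cpt2, had 303, 436, 388, 425 and 252, and 135, 159, 210, 149 and 61.1. Both were lower at day 15 than at day 12, unlike the brightest. Acadl, the long-chain acyl-CoA dehydrogenase, had 2133, 1909, 2653, 2848 and 2341. Hadh, the enzyme of the third step of the beta-oxidation cycle, had 10866, 11768, 12512, 14373 and 15015, 1.38-fold higher at day 15 (2.03-fold and 1.54-fold by other probe sets), and its brightest probe set is of the same design as the dim one of Cpt2. By the brightest probe sets no oxidation gene was 2-fold lower from day 12 to day 15. The group median was 0.02, beside -0.98 for the lipolysis group. The oxidation median is the value of Cpt1a, whose dimmer probe sets were lower. The difference between the medians of these groups was not tested.

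All 4 lipoprotein and lipid export genes passed 2-fold over day 2 on both day 12 and day 15. Apoe, the apolipoprotein of lipid export and remnant uptake, had 14.3, 27.5, 1008, 4749 and 2265. It was under the floor on days 2 and 6, at least 65.0-fold over day 2 on day 12 and at least 31.0-fold on day 15, the largest differences among the 33 genes. Apoc1, a small apolipoprotein encoded next to Apoe, had 158, 127, 222, 1060 and 633, 6.69-fold higher at day 12. Apoe had left the floor by day 9, where Apoc1 was 1.40-fold above day 2, and both were highest at day 12.

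Apod, a lipocalin that carries small lipids, had 14.0, 53.9, 608, 689 and 646, at least 9.42-fold over day 2 on day 12 and at least 8.83-fold on day 15. It held its level over the last 3 arrays, where Apoe did not. Abca1, the transporter that loads cholesterol and phospholipid onto apolipoproteins and whose E-box stretch is shown with those of Mgll and Lipe, had 567, 1758, 3298, 3616 and 1244. It was 6.37-fold higher at day 12, and 4.40-fold and 3.21-fold by its other probe sets. At day 15 it was 2.19-fold above day 2 by the brightest probe set, and 0.957-fold and 1.43-fold by the others.

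**Figure D4:**
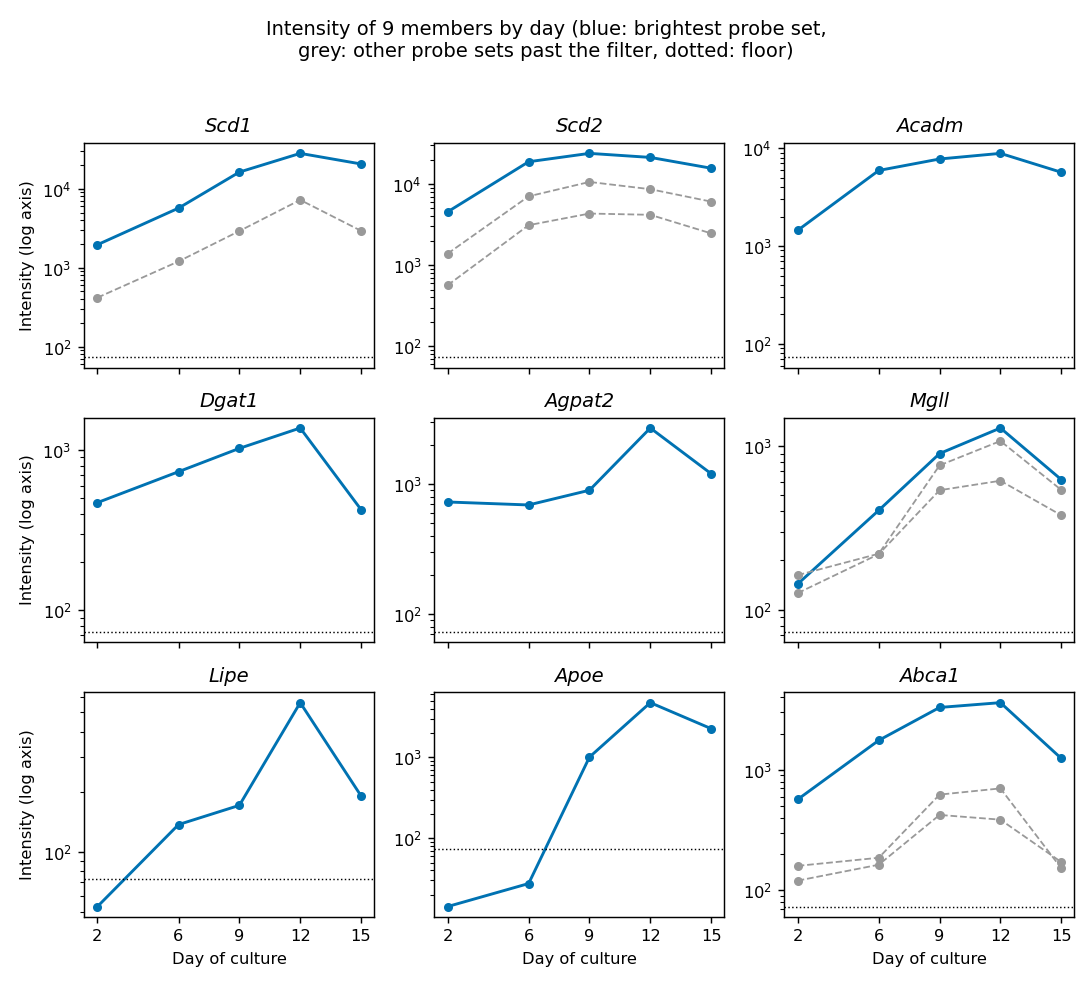
Intensity on a log axis against day of culture for 9 lipid genes, with the brightest probe set in blue, other probe sets past the filter in grey and the floor of 73.1 dotted. Acadm and Scd2 are near their top at day 6, Apoe leaves the floor at day 9, and Agpat2 and Lipe stand highest at day 12, with 2701 and 559.

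By the brightest probe set, the first day at 2-fold over day 2 separated the genes by time. It was day 6 for 9 genes (Scd1, Scd2, Fads1, Srebf1, Lpin1, Mgll, Cpt2, Acadm and Abca1), day 9 for 7 (Elovl6, Thrsp, Dgat1, Plin4, Lipe, Apoe and Apod) and day 12 for 5 (Agpat2, Slc2a4, Pnpla2, Pnpla3 and Apoc1). Over all genes the shares were 10.2%, 7.19% and 2.68%. No lipid gene reached it first at day 15, beside 3.19% of all genes, and 12 of the 33 never did, beside 76.7%. The desaturases Scd1, Scd2 and Fads1 are in the first set. Of the triglyceride enzymes and lipases that reached 2-fold, Lpin1 and Mgll are in the first set and the others in the later ones. Other probe sets past the filter were under 2-fold at day 6 for Mgll (1.73-fold and 1.35-fold) and Lpin1 (1.54-fold). The same held for Abca1 (1.17-fold and 1.36-fold), Fads1 (1.04-fold) and Cpt2 (0.911-fold), but not for Scd1 and Scd2. Fads2, among the 12, was 3.81-fold and at least 2.14-fold higher at day 6 by its other probe sets. The order thus depends in part on the probe set.

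At day 12, 10 genes past 2-fold had further probe sets past the filter, 13 in all, and 11 of the 13 gave the same call. Cpt2 and Fads1 were the genes in doubt. At day 15, 5 of 10 gave the same call, and the doubt covered Abca1, Cpt2, Fads1 and Lpin1. The day 12 calls were thus shared by more probe sets than those of day 15.

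A straight line on day was fitted by limma to all 11075 genes. By that test 0 of the 33 lipid genes had a trend at an adjusted p under 0.05, beside 0.0542% of all genes rising and 0.00% falling. At an unadjusted p under 0.05, 8 had a rising slope (Apoc1, Apod, Apoe, Cpt2, Lpin1, Mgll, Plin4 and Scd1) and 0 a falling one, beside 14.4% and 12.7% of all genes. Scd1 had the lowest p among them, with a slope of 0.29 ± 0.053 log2 units per day (SE) and a limma adjusted p of 0.0734. A line is a poor description of a course that peaks at day 12, and the smallest adjusted p of any gene was 0.035.

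A wider list of 114 lipid genes outside the 40, written by textbook role with earlier results of these data known, gave 86 measured genes. Its shares are thus not independent of these data. At day 12, 27 of the 86 (31.4%) were higher by 2-fold or more and 5 (5.81%) lower, beside 16.1% and 11.4% of all genes. Their median was 0.31. At day 15 the counts were 19 (22.1%) and 6 (6.98%), beside 16.2% and 11.6% of all genes, and the median was 0.20. By limma 0 had a trend at an adjusted p under 0.05 over all genes. At an unadjusted p under 0.05, 20 had a rising and 7 a falling slope, beside 14.4% and 12.7% of all genes. Day 12 was the highest day for 28 of the 86 (32.6%), beside 15.5% of all genes. From day 12 to day 15, 9 (10.5%) were lower by 2-fold or more and 3 (3.49%) higher, beside 3.92% and 4.23% of all genes.

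By role, the extremes at day 15 against day 2 were these. In synthesis, Insig1, which holds SREBP in the endoplasmic reticulum, was 7.55-fold higher and Idh1, a cytosolic source of NADPH, 6.90-fold higher, while Pgd, another NADPH source, was 2.51-fold lower and Mlx, the partner of ChREBP, 1.97-fold lower. In storage, Fabp4 and Cd36, which bind and take up fatty acids, were 93.6-fold and at least 14.9-fold higher, and the acyltransferase genes Gpat4 and Agpat3 5.49-fold and 1.83-fold lower. In lipolysis no gene reached 2-fold higher: Pnpla8 was at 1.93-fold and Abhd5, the coactivator of ATGL, at 1.77-fold, with Pnpla6 1.39-fold lower and Abhd6 2.43-fold lower. In oxidation, Acsl3 and Acad11 were 2.22-fold and 2.11-fold higher, and Acsl5 and Ppargc1a, a coactivator of oxidative genes, 2.95-fold and at least 1.94-fold lower. Among lipoprotein genes, Pltp, the phospholipid transfer protein gene, was 5.79-fold higher and Vldlr, a lipoprotein receptor gene, 2.50-fold higher, with Mttp, needed for secretion of apolipoprotein B, 3.98-fold lower and Lcat 2.45-fold lower. Lcat passed the filter only through its day 2 array, with a mean of 97.9 over the other arrays, so the filter itself favoured a lower later value.

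Of 8 measured markers of fat cells, 7 were 2-fold or more above day 2 at day 12 and 6 at day 15, and 5 were lower by 2-fold or more at day 15 than at day 12. Cidec, counted among the 7 and the 5, passed the filter only through its day 12 array, with a mean of 48.3 over the other arrays. The filter itself thus favoured a day 12 high for Cidec, also where it is counted in the wider list. The summed intensity of the 8 adipocyte markers with a probe set (Adipoq, Fabp4, Retn, Cd36, Lpl, Pparg, Cebpa and Cidec) was 3613, 12339, 59720, 104308 and 54387 on days 2, 6, 9, 12 and 15, with 5, 7, 7, 8 and 8 of them at or above the floor. It was 28.9-fold above day 2 at day 12 and 15.1-fold at day 15. Most of the day 12 sum came from Lpl (37933), Fabp4 (36538) and Adipoq, the adiponectin gene, which had 79.3, 79.6, 5191, 16395 and 5924. Pparg, which encodes PPAR gamma, had 1632, 1514, 2567, 2873 and 1501, within 2-fold of day 2 throughout. Fabp4, Cd36, Lpl, Pparg, Cebpa and Cidec are lipid genes of the wider list too, and only Adipoq and Retn lie outside it. Most of the marker list was thus counted there already. The arrays read RNA of whole dishes, so more cells of a type and more RNA per cell cannot be told apart, and the part of fat-like cells in the lipid gene levels was not tested. Of the 6 brown fat markers with a probe set, Ucp1, the uncoupling protein gene, was 120 at day 2, under the floor on days 6, 9 and 12 and 76.8 at day 15, and the list sum stayed between 979 and 1373. Of the 3 measured brown fat markers, Cox7a1 was 3.11-fold above day 2 at day 15, with 442, and the others were within 2-fold.

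Macrophages also express Apoe, Apoc1 and Abca1. The 13 macrophage markers summed to 2041, 1163, 916, 1477 and 1275, so the sum was below its day 2 level on every later day, and 6 to 8 of 13 were at or above the floor. From day 9 to day 12, where Apoe and Apoc1 were higher too, all 6 measured markers were higher, 2 of them by 2-fold or more, with a median log2 difference of 0.68. Lyz2 was highest at day 12, with 294, and Cd68 at day 15, with 362. The other measured markers were highest earlier, Csf1r (380), Cd14 (447) and Mrc1 (210) at day 2 and Adgre1 (172) at day 6. Mrc1 passed the filter only through its day 2 array, with a mean of 95.0 over the other arrays. The defining complement genes C1qa and C1qc were under the floor on all 5 arrays, and C1qb was 193 at day 2 and under the floor from day 6. The part of macrophages in the levels of these lipid genes was not tested. Of 7 endothelial markers 1 or 2 reached the floor on any day. The 8 skeletal muscle markers summed to between 942 and 2151, highest at day 6.

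All 8 cartilage markers were above the floor on all 5 arrays, but their sum went from 130309 at day 2 to 30316 at day 12 and 42632 at day 15. At day 12, 7 of the 8 were 2-fold or more lower than at day 2 and 1, Matn1, was 4.11-fold higher. The sum was lowest on the array on which most lipid genes were highest. The 12 genes of the low-oxygen response summed to 67426, 47961, 30827, 36296 and 128428, so the sum was highest on the day 15 array, on which 9 lipid genes were lower than at day 12. All 12 were 2-fold or more above day 12 on that array, although Slc2a1 was highest at day 2. The part of the cartilage and low-oxygen lists in the lipid gene levels was not tested.

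**Figure D5:**
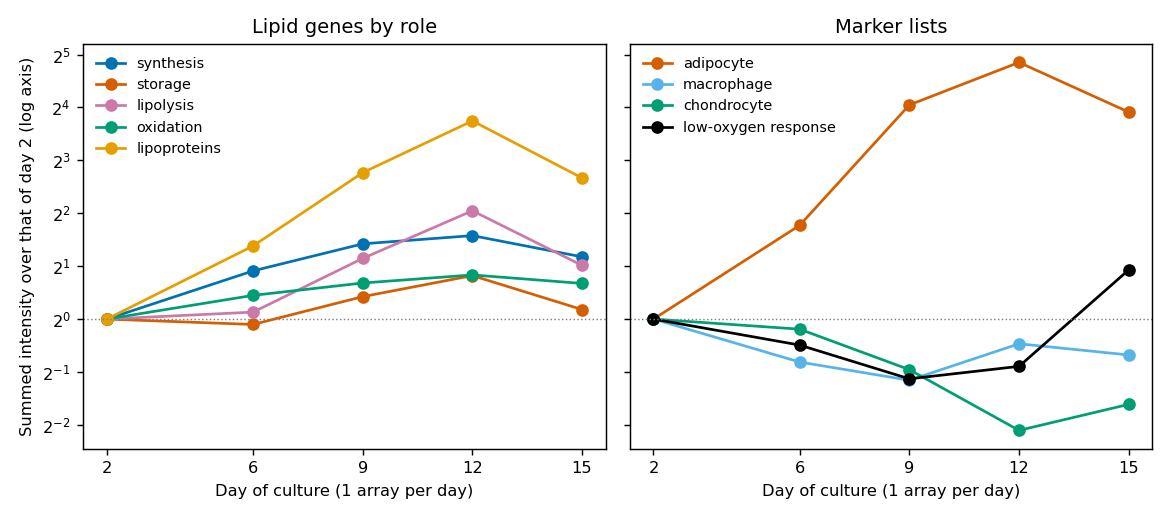
Summed intensity over that of day 2 (log axis) against day of culture, for the lipid genes by role (left) and for 4 marker lists (right), 1 array per day. The adipocyte sum reaches 28.9 times day 2 at day 12 and the lipoprotein genes 13.4 times, while the cartilage sum is at 0.233 times.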

How the data were processed

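The authors deposited a linear intensity per probe set, computed by MAS5 (version not stated) according to the submitters' processing notes. Each array had a 2% trimmed mean of 500, so the scale is relative to the array average and hides a general rise or fall. Detection calls were not used here. Of 45101 probe sets, 34945 carried 1 gene symbol in the platform annotation, 932 several, 9160 none and 64 were controls. Symbols were updated through the RefSeq gene table of GRCm38.p6 (34741 matched, 204 kept the older name).

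Intensities were floored at the 40th percentile (73.1) and log2 was taken. The trend used lmFit and eBayes of limma 3.58.1 in R 4.3.3 (two-sided, 3 residual and 2.83 prior degrees of freedom, Benjamini-Hochberg over 11075 genes). It was tried on simulated straight-line changes only, which cannot show how it treats a course that rises and falls. Other steps used Python 3.11.15, pandas 2.3.3, numpy 2.4.6 and matplotlib 3.10.9. Precision is limited by the number of arrays.

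The lipid genes and all lists were chosen with earlier results of these data known. All 40 are named. Of the wider list the 2 highest and 2 lowest measured genes per role at day 15 against day 2 are named. The cell-type lists covered adipocytes, brown adipocytes, macrophages, skeletal muscle, endothelium, chondrocytes and the low-oxygen response. Alternatives varied normalization, floor, filter, probe sets and days.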

Additional observations from a re-analysis of the deposited data

How the results depend on the processing

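No paired analysis was possible because each day has 1 array. Counts of higher lipid genes stayed between 9 and 15 for day 15 against day 2 and between 14 and 19 for day 12 against day 2 under all alternatives run. The day 12 and day 9 comparisons with other settings were added after seeing the data. The median log2 difference at day 15 was 0.75 with arrays centred on the median, 0.44 with a 60th percentile floor, 0.39 with probe sets averaged and 0.37 with no filter, where 1 gene (Pck1) was lower. That centring shifted the median of all genes to 0.14 at day 15 and 0.11 at day 12. The day 12 median was 1.49 with centring, 1.20 with that floor, 1.07 with a pseudocount, 1.10 with the mean over probe sets, 0.88 with no filter and 1.01 with a filter at the 70th percentile. It was 0.97 with day 9 in place of day 12 and 0.80 with day 6 in place of day 2. Lower genes at day 12 numbered 0 with quantile normalization, with centring and with day 6 as the base, and 2 with no filter. For day 15 against day 12 the median was -0.59 with quantile normalization and -0.64 with the mean over probe sets. With day 9 in place of day 12 it was -0.31, with 4 genes lower and 2 higher. No lipid gene had a limma trend at an adjusted p under 0.05 in any of these fits or without the array of any 1 day (0 in each). Of 273 single-gene differences at day 15 under other settings, 25 moved by more than the SD between probe sets and 0 changed the sign of a call. The cause of these shifts was not tested. Genes near the floor, such as Lipe, Thrsp and Apoe at day 2, are limited by signal over background.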
